A study of Mus musculus with 21 samples.

Results

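The cytosolic ribosomal protein genes encode the proteins of the large (Rpl) and small (Rps) subunits of the ribosome in the cytoplasm. They were taken as all gene symbols that begin with Rpl or Rps and a digit, plus the stalk proteins Rplp0, Rplp1 and Rplp2 and the small-subunit protein Rpsa. The Rps6k kinases, Rps19bp1 and pseudogenes were left out. On this array 85 of 20145 named genes met the rule: 43 of the large subunit, 30 of the small subunit, 3 of the stalk and 9 paralogs of another member. They were covered by 172 probes, and each of the 52 members with over 1 probe was represented by its brightest probe.

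A eukaryotic ribosome carries 1 copy of nearly every ribosomal protein, so the cell makes them in near-equal amounts, and their mRNAs are among the most abundant in a growing cell. Most of these mRNAs begin with a 5′ terminal oligopyrimidine (TOP) tract, a C followed by a run of pyrimidines, through which mTORC1 and the RNA-binding protein LARP1 control their translation and stability together. Insulin-secreting beta cells carry a high protein-synthesis load in the endoplasmic reticulum. When it is exceeded, the kinase PERK phosphorylates the translation factor eIF2alpha, which lowers general translation and starts the integrated stress response (ISR) through the transcription factor ATF4.

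All 9 groups were of the mouse MIN6m9 line, a subclone of the insulinoma-derived MIN6 beta cell line. In the fatty acid experiment wild-type cells received 400 uM palmitate, a saturated fatty acid, or 400 uM oleate, an unsaturated one, for 48 h, or were left untreated (n = 3 arrays each). The PERK experiment used MIN6m9 cells with Fv2E-PERK, in which the drug AP20187 brings the kinase domains of PERK together and so switches them on without other stress. They were exposed to AP20187 at 1 nM for 6, 12, 24 or 48 h, or mock-treated with ethanol, and a mock-treated wild-type group was included (n = 2 arrays each). When untreated and mock cells were harvested, how many Fv2E-PERK clones were used and whether replicates were separate cultures is not stated in the labels, and no group of wild-type cells given the drug is analysed here. The p-values therefore measure only the spread between these arrays, which may be technical.

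Because TOP tracts lie at the first bases of the mRNA, the stretch from 25 bases before to 25 bases from the annotated start is shown for 9 members whose values are given in the results. The sequences are those of RefSeq on assembly GRCm38.p6, on the gene's strand, with the longest run of C and T in capitals (both where 2 are of that length). Where the table gives several starts of a gene, as for Rpl10a, Rps27l and Rps24, the one with the longest run is shown. Rpl12, Rpl10a, Rps27l and Rpl7l1 rose from mock against the rest of the family in AP20187-treated cells, and Rpl14, Rps24, Rpl11 and Rplp0 fell against it at 48 h. Rps27 is the gene that Rps27l resembles.
Rpl12, chr2:32961687-32961736, plus strand: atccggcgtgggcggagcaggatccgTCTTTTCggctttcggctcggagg
Rpl10a, chr17:28328540-28328589, plus strand: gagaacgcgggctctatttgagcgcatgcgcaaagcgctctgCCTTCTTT
Rps27l, chr9:66946061-66946110, plus strand: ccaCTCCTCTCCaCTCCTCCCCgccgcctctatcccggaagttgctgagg
Rpl7l1, chr17:46782632-46782681, minus strand: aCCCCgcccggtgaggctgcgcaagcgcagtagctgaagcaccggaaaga
Rps27, chr3:90213624-90213673, minus strand: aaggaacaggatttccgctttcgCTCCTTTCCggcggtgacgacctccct
Rpl14, chr9:120571492-120571541, plus strand: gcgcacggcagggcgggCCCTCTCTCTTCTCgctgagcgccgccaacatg
Rps24, chr14:24490653-24490702, plus strand: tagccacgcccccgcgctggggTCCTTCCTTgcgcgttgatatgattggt
Rpl11, chr4:136053369-136053418, minus strand: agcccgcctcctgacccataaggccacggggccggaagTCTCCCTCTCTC
Rplp0, chr5:115559442-115559491, plus strand: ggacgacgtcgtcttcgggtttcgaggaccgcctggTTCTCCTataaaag
The runs of Rpl10a and Rpl11 reach the end of the window and may go on beyond it. The runs of Rps27, Rps24 and Rpl12 begin -2, -3 and 1 bases from the annotated start base, while the 2 runs of 9 bases of the paralog Rps27l begin -22 and -12 bases from it and Rpl7l1 has no run above 4 bases. The starts shown for Rps27l and Rpl10a lie 1462 and 94 bases inside the outermost RefSeq start of the gene.

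RefSeq start sites were at hand for 64 of the 85 members, with 76 starts. A run of at least 8 pyrimidines lay in this window at 35 of the 76 starts (46.1%), against 6429 of 32775 starts of other genes (19.6%). Runs of at least 8 purines, counted the same way, lay at 7.89% of the ribosomal protein starts and at 21.6% of the others. The motif TGATGNAA, the form of many ATF4 target sites, was searched on both strands of 300 bases (250 before and 50 from the start). It was found at 0 of 76 ribosomal protein starts, against 3.98% of the other starts.

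Of the 85 members, 81 were well above the local background on every array on which their spot was read, Rps4l, Rpl39l and Rpl3l on some arrays, and Rpl10l on no array. For 10 members the spot was an outlier on 1 array and that value was left out. Levels are log2 of the background-subtracted signal minus the array's 75th percentile, so a level of 8 lies 8 doublings above that percentile. A member was called higher or lower at a Benjamini-Hochberg adjusted p under 0.05 from limma fitted to all entries of the array (21281 tested in the fatty acid experiment, 23388 in the PERK experiment). Of the members, 81 and 83 were tested, since Rpl10l, Rpl39l, Rpl3l and Rps4l in the fatty acid experiment and Rpl10l and Rpl3l in the PERK experiment were not bright enough. Rpl39l entered the test in the PERK experiment through the 12 h arrays alone and was above background on no mock and no 48 h array. Its calls are therefore no measured difference. Counts from all arrays on the 75th percentile and family-centred scales that hold one are given without it or name it. Counts of the PERK experiment under other scalings, other processing or with arrays left out may include it. Replicate arrays correlated across entries at 0.986 to 0.994 in the fatty acid experiment and at 0.989 to 0.991 in the PERK experiment. The median replicate SD of a member was 0.07 log2 units in the fatty acid experiment and 0.09 in the PERK experiment. The 21 arrays came from 4 slides. Slide 1 held all untreated and oleate arrays and palmitate replicates 1 and 2, slide 2 palmitate replicate 3, slide 3 the wild-type mock and 48 h arrays, and slide 4 the Fv2E-PERK mock, 6, 12 and 24 h arrays. Each array had 8 to 10 of 10 beta cell markers above background. Skeletal muscle markers stood apart on palmitate replicates 1 and 2, and heart muscle markers on the untreated and oleate arrays, as given beside Rpl3l, the muscle member of the family.

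The ribosomal protein genes were among the brightest on the array in every group. The median member lay at 7.80 ± 0.06 in palmitate-treated, 7.74 ± 0.05 in oleate-treated and 7.83 ± 0.06 in untreated cells (SD of array medians, n = 3). It lay at 7.94 ± 0.01 in mock Fv2E-PERK cells, 7.35 ± 0.04 after 6 h of AP20187, 7.55 ± 0.10 after 12 h, 7.81 ± 0.11 after 24 h and 7.49 ± 0.03 after 48 h, and at 8.33 ± 0.01 in mock wild-type cells (n = 2). The 3 groups of the fatty acid experiment overlapped. All 8 AP20187 arrays lay below both Fv2E-PERK mock arrays on this scale, while after quantile normalization the median change of the family was between -0.02 and 0.12. Quantile normalization makes the signal distributions of the arrays equal, so it can show little of a change that the brightest entries share. Before scaling, the median log2 signal of the family was 16.6 to 16.8 after 6 h, 16.6 after 12 h, 16.8 to 16.9 after 24 h and 17.0 to 17.2 after 48 h, against 16.6 to 16.8 in mock Fv2E-PERK cells. The 75th percentile signal by which arrays were scaled was 625 to 662 at 6 h and 739 to 823 at 48 h, against 391 to 463 in the mock arrays.

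**Figure D1:**
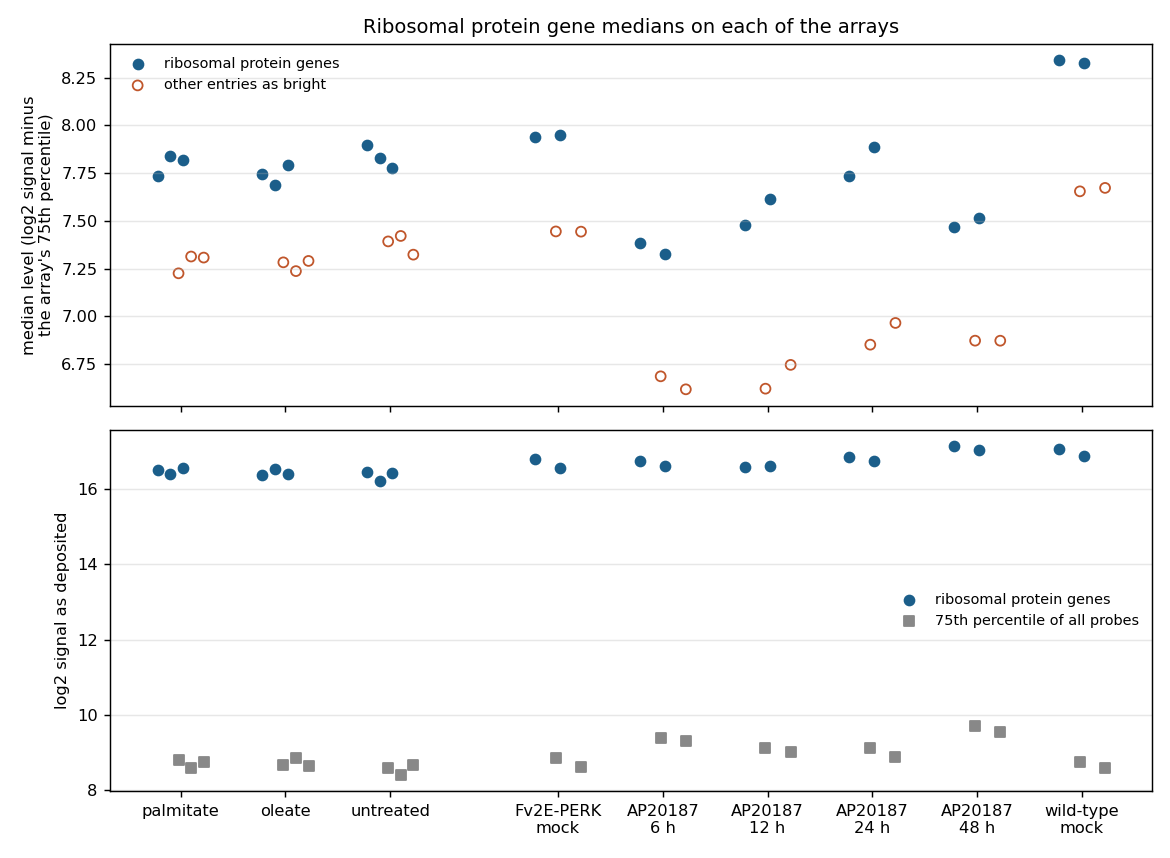
Each point is 1 array, by group along the x axis. The upper panel shows the median level of the ribosomal protein genes and of 835 other entries among the brightest 5% of entries over all 21 arrays (log2 signal minus the array's 75th percentile), and the lower panel shows the median log2 signal of the ribosomal protein genes before scaling beside the 75th percentile itself. On the scaled axis the 6 h arrays lie lowest (7.32 and 7.38) and the wild-type mock arrays highest (8.33 and 8.34), while on the unscaled axis the family spans 16.2 to 17.2. The median change at 6 h is -0.02 after quantile normalization, which can show little of a change shared by the brightest entries.

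Few members were called in palmitate- or oleate-treated cells. Of 81 members tested, 0 were higher and 1 was lower with palmitate than in untreated cells, where 20.1% of all entries tested were called. The median change was -0.04, beside -0.05 over all entries. Its direction depended on the scale, with 0.02 after quantile normalization, 0.13 with spike-in scaling and -0.27 in the authors' deposited table of log2 values. The single member was Rpl28, a large-subunit protein. It lay at 6.66, 6.71 and 6.74 in palmitate-treated cells, against 7.04, 6.98 and 6.90 in untreated cells, and the groups did not overlap. The difference was -0.27 ± 0.05 log2 units (SE, limma, adjusted p = 0.0099). Relative to the family (each array shifted to a common median of the members) it was -0.21 ± 0.05 (limma adjusted p = 0.029, where 14.9% of all entries were called), a call that was lost when any single array of either group was left out. With palmitate replicate 3 alone, the array without raised skeletal muscle markers, Rpl28 was at -0.24 (limma adjusted p = 0.12 with the spread taken from the other groups). With oleate 0 of 81 members were called by limma, where 0.836% of all entries were. At an unadjusted limma p under 0.05 there were 32 of the 81 members and 3461 of the 21281 entries tested. The median change with oleate was -0.14, beside -0.05 over all entries and -0.12 over the other entries among the brightest 5%. Relative to the family 0 members were called with oleate by limma, where 0.804% of all entries were called. There 3 members and 3200 of the 21281 entries had an unadjusted limma p under 0.05.

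Palmitate and oleate differed directly at 3 members, all higher with palmitate, where 13.7% of all entries were called. Rps27l, a small-subunit paralog whose human gene is a target of p53, lay at 6.57, 6.64 and 6.70 with palmitate, against 6.33, 6.30 and 6.29 with oleate. The 2 groups did not overlap, and the difference was 0.33 ± 0.05 (limma adjusted p = 0.0056). Relative to the family it was 0.26 ± 0.05 (limma adjusted p = 0.011), the single member called, where 14.7% of all entries were. With palmitate replicate 3 alone the difference from the family was 0.30 (limma adjusted p = 0.062). In untreated cells Rps27l lay at 6.58, 6.57 and 6.51, next to the palmitate arrays and above all oleate arrays, and neither fatty acid was called against untreated. Rpl23a and Rpl13, both of the large subunit, differed by 0.23 ± 0.06 and 0.19 ± 0.05 (limma adjusted p = 0.036 and 0.034). Their call was lost when palmitate replicate 1, palmitate replicate 2 or any oleate array was left out, for Rpl13 also without palmitate replicate 3, and for Rpl23a also without untreated replicate 3. Both calls were lost after quantile normalization, with spike-in scaling and with the replicate block (limma adjusted p = 0.073 for Rpl13 and 0.08 for Rpl23a with the block), and from the authors' deposited table both members turned, to -0.06 for Rpl23a and -0.10 for Rpl13. Among the 71 members above background on all arrays, the least variable over these 9 arrays was Rpl36a, with a range of 0.17 log2 units. The most variable of these 71 was Rpl32, with a range of 1.02 that came from oleate replicate 2 alone, at 7.31 against 8.20 and 8.22 on the other oleate arrays. Palmitate raised 10 of the 10 stress-response genes used to check the ISR (median 1.05) and 1 of the 81 ribosomal protein genes was called.

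Nearly the whole family was lower with AP20187 relative to the array's 75th percentile, although the family's median change was between -0.02 and 0.12 after quantile normalization and between -0.05 and 0.55 with spike-in scaling. At 6 h, 80 of 83 members tested were lower than in mock Fv2E-PERK cells and 0 were higher, where 40.0% of all entries were lower and 24.9% higher. The 12 h arrays had 77 members lower and 1 higher (40.5% and 27.2% of all entries), or 0 higher without Rpl39l, and the 24 h arrays 56 lower and 3 higher (40.4% and 27.0%), or 2 higher without it. After 48 h, 68 were lower and 0 higher (34.6% and 27.2%). The median member changed by -0.71, -0.57, -0.38 and -0.58 at 6, 12, 24 and 48 h, beside -0.23, -0.19, -0.20 and -0.07 over all entries. The changes of the members at 6 h had an SD of 0.22, against 0.85 over all entries, most of which are dimmer. For the 78 members among the brightest 5% of entries the lower and upper quartiles of the changes were -0.78 and -0.63, against -0.85 and -0.51 for the other entries there. At 6 h all 43 large-subunit, all 30 small-subunit and all 3 stalk genes were called lower, with medians of -0.74, -0.73 and -0.70, and 4 of the 7 paralogs tested were. By 24 h the numbers were 28 of 43, 24 of 30, 2 of 3 and 2 of 7. The 6, 12 and 24 h arrays share slide 4 with the Fv2E-PERK mock arrays. The 48 h arrays lie on another slide, so in that comparison slide and group cannot be told apart.

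The single members with the lowest change at 6 h were Rps21, Rps4x, Rps25, Rpl36a and Rpl37a. Rps21, a small-subunit protein, lay at 5.75 and 5.57 at 6 h, against 6.70 and 6.59 in mock cells, a difference of -0.99 ± 0.11 (limma adjusted p = 9e-05). Rpl37a, of the large subunit, differed by -0.91 ± 0.09 (limma adjusted p = 5.2e-05). At the other end, Rpl10a, a protein of the L1 stalk of the large subunit, lay at 7.69 and 7.72 at 6 h, against 8.09 and 8.0 in mock cells (-0.34 ± 0.09, limma adjusted p = 0.012). At 12 and 48 h the lowest change was that of Rpl14, also of the large subunit. It lay at 7.29 and 7.38 at 48 h, against 8.82 and 8.85 in mock cells, a difference of -1.5 ± 0.08 (limma adjusted p = 4e-06). All 4 of these members, picked by their change, had groups that did not overlap, and the share of all entries that did so was not counted.

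**Figure D2:**
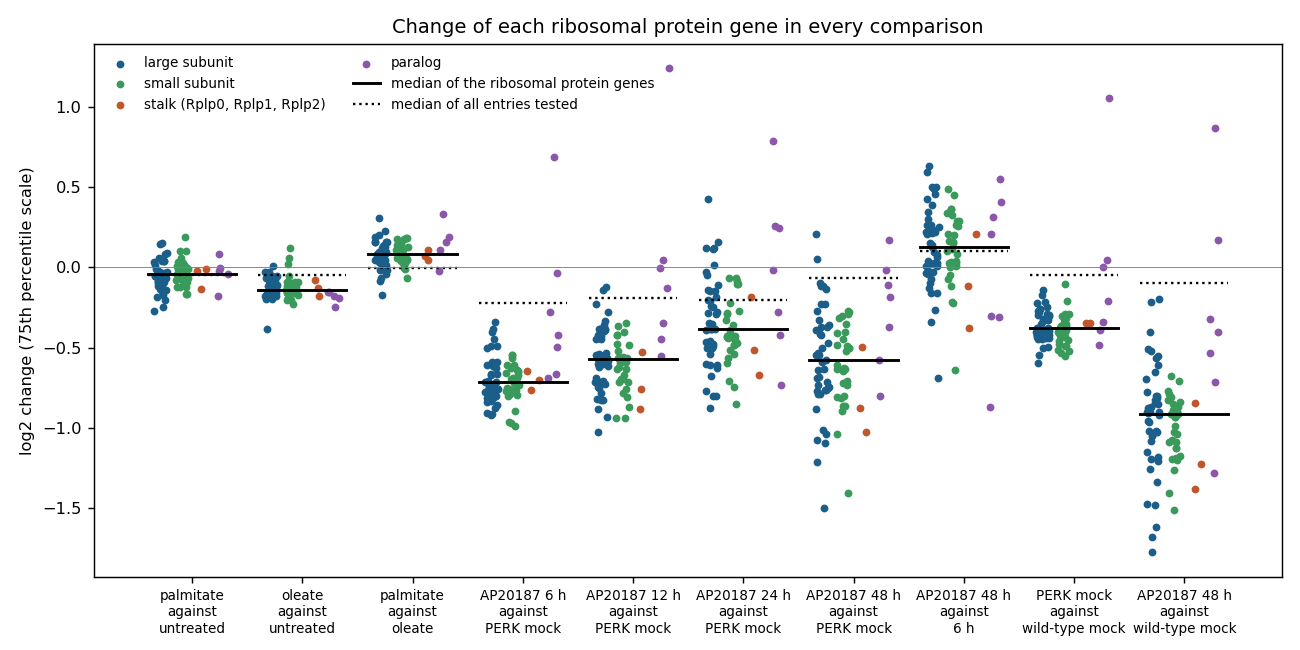
Each point is 1 ribosomal protein gene in 1 of 10 comparisons along the x axis, coloured by subunit, and the y axis is its log2 change on the 75th percentile scale. The solid line is the median of the ribosomal protein genes and the dotted line that of all entries tested: both lie near 0 in the fatty acid comparisons, and the solid line lies at -0.71 against -0.23 at 6 h of AP20187. Quantile normalization, which can show little of a change shared by the brightest entries, reduces this shift to -0.02.

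The direction of this shared change depended on the scale. After quantile normalization, which gives every array the same distribution of signals, 10, 20, 29 and 21 members were higher and 12, 14, 9 and 24 lower at the 4 times, with medians of -0.02, 0.00, 0.12 and -0.01. With arrays scaled to spiked-in RNA, 2, 4, 37 and 3 members were higher and 0, 0, 0 and 3 lower, with medians of -0.05, 0.15, 0.55 and 0.01. No share of all entries called is given for these 2 scales, here or below, so the counts of members stand without a background. Spike-in scaling moved the median of all entries to 0.44, 0.54, 0.73 and 0.52. Like the 75th percentile scale it subtracts a single value per array. The family minus all entries, -0.49, -0.38, -0.18 and -0.51, is therefore the same on both scales by construction. After quantile normalization the family minus all entries was 0.03, 0.04, 0.18 and -0.02.

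Brightness moved with the change. Of the 83 members tested, 78 fell in the brightest 5% of entries. The other 1092 entries there had medians of -0.70, -0.59, -0.43 and -0.53 at 6, 12, 24 and 48 h, next to -0.73, -0.57, -0.39 and -0.60 for the 78 members. In that bin 86.8, 83.1, 68.9 and 75.9% of the other entries were called lower at 6, 12, 24 and 48 h, while for the members the shares were 100, 96.2, 70.5 and 87.2%. In the middle bins the median change was near 0: -0.05 at 6 h in the tenth of 20 bins. The part of brightness in the family's change was not tested. In these bulk samples fewer cells of a type and less RNA per cell cannot be told apart.

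**Figure D3:**
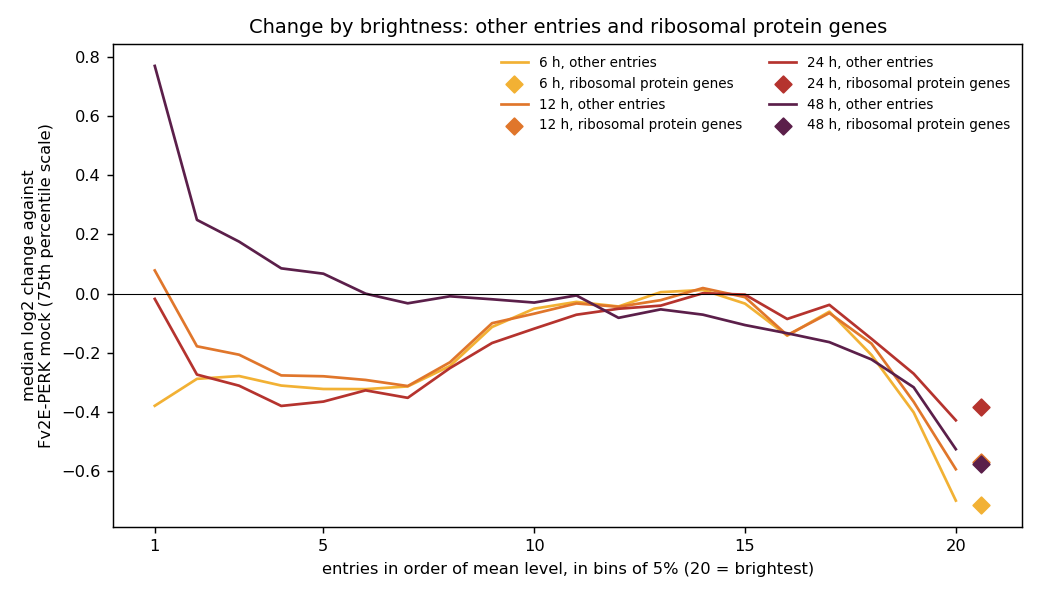
The x axis orders all other entries tested in the PERK experiment by mean level in 20 bins of 5%, and the y axis is the median log2 change against mock Fv2E-PERK cells on the 75th percentile scale. Lines are the other entries at 6, 12, 24 and 48 h and diamonds the ribosomal protein genes: the lines drop to -0.70, -0.59, -0.43 and -0.53 in the brightest bin, close to the diamonds at -0.71, -0.57, -0.38 and -0.58. With quantile normalization, which can show little of a change shared by the brightest entries, the family medians are -0.02, 0.00, 0.12 and -0.01.

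To see which members departed from the family once its shared shift was taken out, each array was shifted so that the median member kept its mean level, and the fit was repeated for all entries. This scale shows only differences between members and the family. A member said to be above or below the family on it changed more or less than the family did, whatever its own level. On it, 8, 9, 19 and 19 members were higher and 3, 9, 11 and 17 lower than in mock cells after 6, 12, 24 and 48 h of AP20187. Without Rpl39l 7, 8 and 18 were higher after 6, 12 and 24 h. Of all entries 52.0, 48.1, 39.4 and 55.4% were higher and 7.27, 13.9, 19.4 and 10.4% lower on this scale, shares that include every entry that did not follow the family. The family's own shift that was taken out was -0.71, -0.58, -0.39 and -0.59. The median replicate SD of a member in the PERK experiment was 0.05 on this scale and 0.09 on the 75th percentile scale.

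The members that rose most against the family were Rpl12, Rpl7l1, Rpl10a and Rps27l. Rpl12 belongs to the base of the stalk, where translation factors bind. On the 75th percentile scale Rpl12 lay at 8.03 and 8.04 in mock Fv2E-PERK cells, 7.68 and 7.64 after 6 h, 7.82 and 8.02 after 12 h, 8.36 and 8.56 after 24 h, then 8.22 and 8.27 after 48 h. It was lower at 6 h and then, alone among the members above background on all arrays other than Rpl7l1, was called above mock at 24 h (0.42 ± 0.09, limma adjusted p = 0.0041). Relative to the family it was higher by 0.33, 0.46, 0.82 and 0.80 at 6, 12, 24 and 48 h (SE 0.08, limma adjusted p = 0.0061, 0.001, 4.1e-05 and 4.5e-05).

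Rpl10a rose against the family at each time, by 0.38, 0.44, 0.55 and 0.64 (SE 0.09). The family-centred level of Rpl10a was 8.36 and 8.39 at 48 h, against 7.79 and 7.68 in mock cells, with no overlap (limma adjusted p = 0.0003). Its call at 6 h was lost without 6 h replicate 2 (0.32, limma adjusted p = 0.052). Rps27l rose by 0.29, 0.45, 0.38 and 0.58 (SE 0.08). Its family-centred level was 6.82 and 6.68 at 48 h, against 6.20 and 6.15 in mock cells (limma adjusted p = 0.00038). The 6 h call of Rps27l was lost without mock replicate 2 (0.27, limma adjusted p = 0.083) or 6 h replicate 1 (0.26, limma adjusted p = 0.09). Rpl7l1, a dim paralog of the large-subunit gene Rpl7, rose by 0.68, 0.57, 0.64 and 0.76 (SE 0.12, limma adjusted p = 0.00051 at 48 h). On the 75th percentile scale Rpl7l1 lay at 0.25 and 0.17 at 48 h, against 0.12 and -0.04 in mock cells. After quantile normalization its family-centred values were 0.03, -0.0038, 0.17 and 0.22 and not called (limma adjusted p = 0.80, 0.97, 0.11 and 0.051). Rpl4, of the large subunit, was higher than the family by 0.49 ± 0.08 at 48 h (limma adjusted p = 0.00059).

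The members that fell most against the family at 48 h were Rpl14, Rps24, Rpl9, Rpl11 and Rpl36a. The family-centred level of Rpl14 was 8.51 and 8.53 in mock cells, 8.44 and 8.41 after 6 h, 8.12 and 8.02 after 12 h, 8.21 and 8.0 after 24 h, then 7.59 and 7.63 after 48 h. Its differences were -0.10 (not called), -0.45, -0.41 and -0.91 (SE 0.10, limma adjusted p = 6.4e-05 at 48 h). Rps24, a small-subunit protein whose human gene is mutated in some patients with Diamond-Blackfan anaemia, differed by -0.05 and -0.18 (not called) and then by -0.35 and -0.81 (SE 0.09). At 48 h Rps24 lay at 8.13 and 8.12 on the family-centred scale, against 8.90 and 8.97 in mock cells (limma adjusted p = 6.1e-05). Rpl9, of the large subunit, differed by -0.16 (not called), -0.35, -0.41 and -0.62 (SE 0.08), and Rpl36a by -0.49 at 24 and at 48 h (SE 0.09, limma adjusted p = 0.0014 and 0.0013). Rpl11 is given with the members that bind Mdm2. None of these 5 members, picked by their change, had groups that overlapped at 48 h, and the share of all entries without overlap was not counted.

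**Figure D4:**
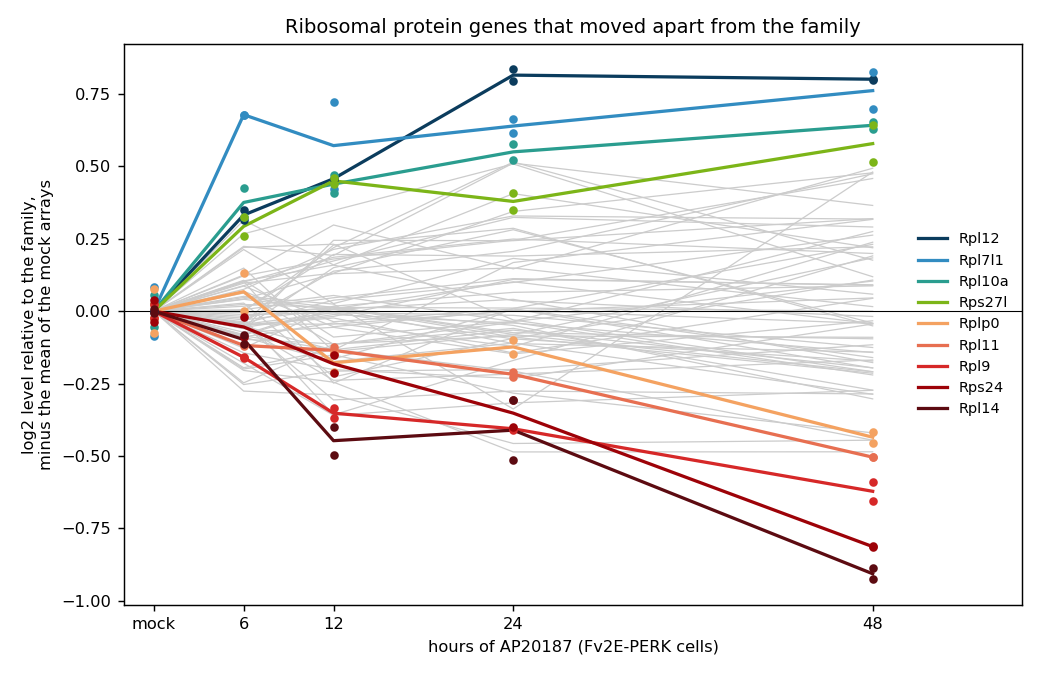
The x axis is hours of AP20187, with the mock arrays drawn at the left although their harvest time is not given, and the y axis is the family-centred log2 level minus the mean of the 2 mock arrays. Coloured lines are means and points single arrays of 9 named members, and grey lines are the other members above background on all 21 arrays. At 48 h Rpl12 lies at 0.80 and Rpl14 at -0.91, with both arrays of each on the same side of 0.

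A second probe of the gene was available above background for 20 of the 36 members that departed at 48 h. For 16 of the 20 the mean change of the other probes had the same sign. Rpl36a is among the 16 by that mean (-0.11), but its 2 other probes disagreed, at -0.50 and 0.28, against -0.49 for the brightest probe. The other probe of Rpl12 gave 1.27, that of Rpl10a 0.55, those of Rpl11 -0.51 and those of Rplp0 -0.32 on average, against 0.80, 0.64, -0.50 and -0.44 for the brightest probe. For the late fallers the size differed: the other probe of Rpl14 gave -0.29 against -0.91, that of Rpl9 -0.18 against -0.62, and the 2 others of Rps24 averaged -0.14 against -0.81. For Rpl22, Rpsa, Rpl24 and Rps25 the other probes pointed the opposite way. These 4, chosen here because their probes disagreed, gave 0.29, 0.44, 0.08 and 0.04, against -0.45, -0.30, -0.29 and -0.22 for the brightest probe. All other probes were centred with the shift of the brightest probes, -0.59 at 48 h. With the mean over all probes the family's median change was -0.43. Whether the small values of Rpl24 and Rps25 depend on this centring was not tested. Ribosomal protein genes have many processed pseudogenes, and whether a probe also binds their transcripts was not tested.

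Comparing 48 h directly with 6 h, 14 members were higher and 14 lower against the family (13 lower without Rpl39l), where 25.7% of all entries were higher and 30.4% lower. Without 1 of the 4 arrays compared the total was 14 to 16 in place of 28. Rpl12 rose by 0.47 ± 0.08 and Rpl13 by 0.38 ± 0.09 (limma adjusted p = 0.0013 and 0.0057). The largest decreases of bright members were Rpl14 with -0.81 ± 0.10, Rps24 with -0.76 ± 0.09, Rplp0 with -0.50 ± 0.09 and Rpl9 with -0.46 ± 0.08 (limma adjusted p = 0.00021, 0.00016, 0.0018 and 0.0011). On the 75th percentile scale 26 members were higher at 48 h than at 6 h and 8 lower, 7 without Rpl39l (33.2% and 27.6% of all entries), with a median of 0.13 beside 0.10 over all entries, while after quantile normalization 18 were higher and 16 lower and with spike-in scaling 0 were higher and 3 lower. Leaving out 6 h replicate 2, 48 h replicate 1 or 48 h replicate 2 brought the 34 calls to 15, 16 and 15. The 2 times lie on different slides.

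The 48 h arrays share slide 3 with the wild-type mock arrays, which gives a comparison within a slide, although it also crosses the Fv2E-PERK transgene. On the 75th percentile scale 77 members were lower and 1 higher, Rpl39l with no array of either group above background, at 48 h than in wild-type mock cells (36.3% and 27.5% of all entries), against 32 and 10 after quantile normalization and 9 and 2 with spike-in scaling. The medians were -0.91, -0.12 and -0.21. Against the family 17 members were higher (16 without Rpl39l) and 19 lower, where 71.6% of all entries were higher and 5.47% lower. Without 48 h replicate 1 these were 12 and 11. Rpl10a was higher than in wild-type mock cells by 0.78 ± 0.09, Rpl12 by 0.76 ± 0.08 and Rps27l by 0.57 ± 0.08 (limma adjusted p = 5.7e-05, 3.2e-05 and 0.00027). Rpl14 was lower, at -0.80 ± 0.10, as were Rpl36a at -0.70 ± 0.09, Rpl9 at -0.65 ± 0.08 and Rps24 at -0.54 ± 0.09 (limma adjusted p = 7.3e-05, 9.2e-05, 6.7e-05 and 0.0004). This comparison uses the same 48 h arrays as the one against the Fv2E-PERK mock cells.

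Mock Fv2E-PERK cells, which received no AP20187, had 53 members lower and 1 higher, again Rpl39l, than mock wild-type cells on the 75th percentile scale, where 10.8% of all entries were lower and 9.23% higher. The numbers depended on the scale: after quantile normalization 7 members were lower and 1 higher, with a median of -0.15, and with spike-in scaling 0 were lower and 1 higher, with -0.26. The median member differed by -0.38, beside -0.05 over all entries and -0.21 over the other entries of the brightest 5%. Rps13, of the small subunit, differed by -0.52 ± 0.07 (limma adjusted p = 0.0018) and Rpl36a by -0.60 ± 0.12 (limma adjusted p = 0.011). The total of 54 calls was 18 and 20 without wild-type mock replicate 1 or 2, and 12 and 17 without Fv2E-PERK mock replicate 1 or 2. Against the family 3 members were higher and 0 lower, where 38.2% of all entries were higher and 1.93% lower. They were Rps24 at 0.27 ± 0.09, Rpl7l1 at 0.38 ± 0.12 and Rpl39l, which was above background on 0 of the 4 arrays and has no measured difference. The calls of Rps24 and Rpl7l1 were lost when any single array of either group was left out and after quantile normalization (0.22 and 0.13, limma adjusted p = 0.14 and 0.31). The 2 groups lie on different slides, so slide and genotype cannot be told apart.

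Several ribosomal proteins are also known for other roles. Rpl5, Rpl11 and Rpl23 bind Mdm2 when ribosome assembly fails, which stabilises p53. At 48 h Rpl11 was below the family by -0.50 ± 0.07 (limma adjusted p = 0.00042), while Rpl5 at -0.04 and Rpl23 at -0.10 were not called. Rpl11 on the 75th percentile scale lay at 7.89 and 7.93 at 48 h, against 8.98 and 9.04 in mock cells. Its smaller family-centred change at 24 h, -0.22 (limma adjusted p = 0.033), was lost within the slide and when any of 8 single arrays was left out. The stalk proteins Rplp0, Rplp1 and Rplp2 form the flexible arm that recruits elongation factors. They differed from the family at 48 h by -0.44 (limma adjusted p = 0.0028), 0.10 (not called) and -0.29 (limma adjusted p = 0.021). Rpsa, the small-subunit protein also known as the laminin receptor, was at -0.30 by its brightest probe (limma adjusted p = 0.012) and at 0.12 when all its probes were averaged. Rps6, the S6 kinase substrate, rose against the family at 24 h alone (0.29). Rps19, whose human gene is often mutated in Diamond-Blackfan anaemia, and Rpl10, which completes the large subunit, were not called against the family at any time.

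Rplp0, Rpl13a and Rps18 are often used as reference genes for quantitative PCR. On the 75th percentile scale their ranges over the 12 arrays of the PERK experiment were 1.46, 1.23 and 1.11 log2 units, against 0.23, 0.41 and 0.34 over the 9 arrays of the fatty acid experiment. The median range of the 71 members above background on all arrays was 1.23 in the PERK and 0.29 in the fatty acid experiment. Relative to the family the ranges were 0.59, 0.27 and 0.39 in the PERK experiment, beside a median of 0.41 over the same 71 members. Rpl6, of the large subunit, tracked the family most closely there, with a range of 0.13, while Rpl7l1 had 1.24.

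Paralogs are second copies of ribosomal protein genes, some of them used mainly in 1 tissue. Rps27l and Rpl7l1 are described above. Rpl22l1, a paralog that Rpl22 represses in the mouse, lay at 6.44 and 6.40 at 48 h, against 7.20 and 7.25 in mock cells (-0.80 ± 0.12 on the 75th percentile scale, limma adjusted p = 0.00044). Against the family Rpl22l1 was at -0.21 at 48 h (limma adjusted p = 0.067), while Rpl22 itself was at -0.45 by its brightest probe and 0.29 by its other. Rps23rg1, a retrogene of Rps23, was above the family at 48 h by 0.48 ± 0.16 (limma adjusted p = 0.024) and at -0.11 on the 75th percentile scale (limma adjusted p = 0.6). Rpl36al showed no departure from the family at any time (0.03 to 0.22). Rpl39l, which replaces Rpl39 in the testis, was above background on both arrays at 12 h and on 1 array each at 6 and 24 h, and on none at 48 h or in mock cells. It lay at -4.05 and -4.14 at 12 h, against -5.38 and -5.30 in mock cells. No fold is given for it, since the bound from the dimmest signals above background was under 1-fold at these times, and after normexp background correction the sign of its change turned at 12 and 24 h.

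**Figure D5:**
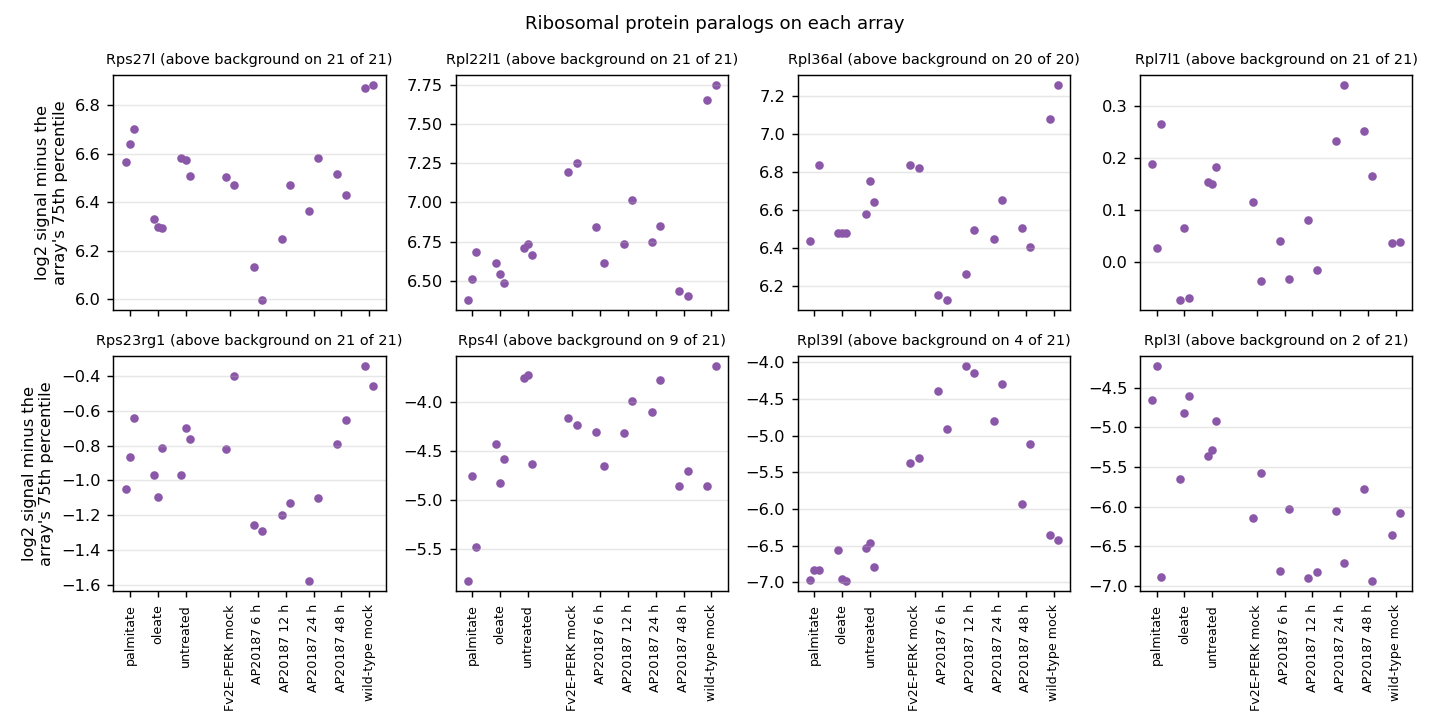
Each panel is 1 paralog and each point 1 array, by group along the x axis, with the log2 level on the 75th percentile scale on the y axis and a range of its own per panel. The title of a panel gives the number of arrays above background of those read: Rpl39l is highest at 12 h (-4.05 and -4.14), and Rpl3l is highest on palmitate replicate 2 (-4.23) and, within the fatty acid experiment, lowest on palmitate replicate 3 (-6.88).

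Rpl3l, the paralog of Rpl3 used in heart and skeletal muscle, was above background on 1 palmitate and 1 oleate array and was not tested. It lay at -4.65, -4.23 and -6.88 with palmitate, against -5.37, -5.29 and -4.92 in untreated cells, and at -5.66, -4.82 and -4.61 with oleate. Between 7 and 19 of 20 skeletal muscle markers were above background on the palmitate arrays, 9 to 10 on the oleate and 8 to 10 on the untreated ones. Their summed log2 level was 0.97 to 4.90 with palmitate, 2.33 to 2.66 with oleate and 2.37 to 3.08 in untreated cells, with Mylpf never above background. Of 9 heart muscle markers, 2 to 5 were above background with palmitate, 8 to 9 with oleate and 8 in untreated cells, with Tnnt2, Tnni3, Mybpc3 and Myl7 never so with palmitate. Their summed log2 level was -0.55 to 0.44, 3.77 to 4.04 and 3.66 to 4.01. The part of these signals in the level of Rpl3l was not tested. Rps4l, a paralog of Rps4x, was above background on 0 of 3 palmitate, 1 of 3 oleate and 2 of 3 untreated arrays, and Rpl10l, which stands in for Rpl10 in the testis, on none of the 21.

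Genes around the family were read from lists of related genes. Counts here are on the 75th percentile scale unless another is named. Of 22 translation factors and related genes whose mRNAs carry TOP tracts, 18 were lower and 1 higher at 6 h (median -0.53), where 40.0% of all entries were lower and 24.9% higher. At 48 h 17 were lower and 2 higher, where 34.6% of all entries were lower and 27.2% higher. On the family-centred scale 1 was lower and 6 higher at 6 h (median 0.19), where 7.27% of all entries were lower and 52.0% higher. On that scale 1 was lower and 5 higher at 48 h, where 10.4% of all entries were lower and 55.4% higher. Eef1a1, which delivers aminoacyl-tRNA to the ribosome, fell by 0.88 ± 0.07 at 6 h (limma adjusted p = 1.5e-05), and the single riser on the 75th percentile scale was the chaperonin subunit Cct4 (0.48 ± 0.08, limma adjusted p = 0.00099). Of 77 mitochondrial ribosomal protein genes, 21 were higher and 22 lower at 6 h, with a median of -0.01. On the family-centred scale 69 of the 77 were higher and 1 lower at 6 h, where 52.0% of all entries were higher and 7.27% lower, since the family's own shift of -0.71 was taken out of every entry.

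Ribosome assembly genes moved apart from the ribosomal proteins. Of 74 genes for ribosome biogenesis and RNA polymerase I, 56, 58, 59 and 55 were higher and 7, 5, 4 and 6 lower at the 4 times (median 0.73 at 6 h). Of all entries 24.9, 27.2, 27.0 and 27.2% were higher and 40.0, 40.5, 40.4 and 34.6% lower. These lists were counted on the 75th percentile and family-centred scales alone. Rrp12, an exporter of ribosomal subunits, rose by 2.15 ± 0.12 at 6 h (limma adjusted p = 5e-06), and Myc, a transcription factor that drives ribosome production, by 2.51 ± 0.13 (limma adjusted p = 3e-06). Nop10, a subunit of the box H/ACA particles that modify rRNA, fell by 1.28 ± 0.09 (limma adjusted p = 1.3e-05). With palmitate 11 of the 74 were higher and 2 lower than in untreated cells (median 0.06), beside 7.42% higher and 12.6% lower of all entries. Of 22 genes of mTORC1 and of TOP mRNA control, 9 were higher and 6 lower at 6 h, beside 24.9% higher and 40.0% lower of all entries. Among them Eif4ebp1, an inhibitor of cap-dependent translation, rose by 1.4 ± 0.10 (limma adjusted p = 1.3e-05). All 10 beta cell markers tested were lower at 6 h (median -0.76), where 40.0% of all entries were, and on the family-centred scale 2 were lower and 1 higher (median -0.04). All 10 stress-response genes were higher at 6 h on both scales (medians 0.70 and 1.42), where 24.9% of all entries were higher on the 75th percentile scale and 52.0% on the family-centred one.

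The pyrimidine runs at the start sites can be set beside the departures as a description. Among members with a start site, a run of at least 8 lay at 9 of 15 that were higher than the family at 48 h, 7 of 16 that were lower and 18 of 31 that were not called. The median longest run was 9, 7 and 9 bases.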

How the data were processed

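RNA of 21 MIN6m9 samples was read on 1-colour Agilent mouse arrays, 1 sample per array. The intensity values deposited by the authors are background-subtracted and detrended signals from Agilent Feature Extraction 10.7.1.1, not scaled between arrays, per the file headers. The authors also deposited a table of log2 values whose scaling between arrays is not stated by any source at hand. Its column medians lay between -0.30 and 0.36, and set against the scanner signals each probe was centred over arrays.

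Control and outlier spots were left out, spots of a probe averaged, and log2 of the signal was taken minus the array's 75th percentile. Probes were named through RefSeq accessions, and a gene is given by its brightest probe over 21 arrays. limma 3.58.1 (R 4.3.3) was fitted to each experiment separately with 1 coefficient per group, over all entries well above background on every array of at least 1 group. Each array's precision is limited by the 3 or 2 arrays per group. For the family-centred scale, arrays were also shifted by the median deviation of the 71 members above background on all arrays. The fits were tested on simulated data.

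Members named in the text are among the 5 with the largest called change in each direction per comparison, members with known roles and all paralogs. The members and gene lists were chosen with earlier results of these data known, and the family-centred scale, the comparison of 48 h with wild-type mock cells and the fits within a slide were added after the data were seen. The replicate number of 1 mock wild-type array was taken from its title, which differs from its source name. Alternatives were normexp background correction (offset 50), quantile normalization, spike-in scaling, the authors' table, no filter on dim probes, the mean over all probes, slide, replicate block and leaving out arrays. A few single-gene results are not reported here.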

Additional observations from a re-analysis of the deposited data

Results flagged for a closer look

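Between 48 h and 6 h of AP20187 the difference itself was tested with limma, and 28 members differed relative to the family. Of the 83 tested, 14 (16.9%) were higher and 14 (16.9%) lower, where 25.7% of all entries were higher and 30.4% lower. Among those that were higher at 48 h, Rpl12 differed by 0.47, Rps23rg1 by 0.43, Rpl13 by 0.38 and Rpl35a by 0.38 (limma adjusted p = 0.0013, 0.044, 0.0057 and 0.011). Among those that were lower, Rpl14 differed by -0.81, Rps24 by -0.76, Rplp0 by -0.50, Rpl9 by -0.46 and Rpl22l1 by -0.43 (limma adjusted p = 0.00021, 0.00016, 0.0018, 0.0011 and 0.0037). The count includes Rpl39l, which was above background on 1 of the 2 arrays at 6 h and on 0 of the 2 at 48 h and is given no difference here. The 2 times lie on different slides.

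Between palmitate and oleate 1 member differed relative to the family, Rps27l with 0.26 (limma adjusted p = 0.011), higher in 3 of 3 palmitate arrays than in every oleate array on the 75th percentile scale. Of all entries 14.7% were called relative to the family there.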

How the results depend on the processing

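The family's shared change depended on the scaling, and the departures of single members at 48 h did so less. Under the alternatives run, the 48 h calls against mock cells of Rpl12 (0.78 to 0.91), Rpl10a, Rps27l, Rpl14 (-0.93 to -0.73), Rps24, Rpl9, Rpl11, Rplp0, Rpl4 and Rpl36a relative to the family were all kept, and that of Rpl7l1 was lost after quantile normalization. No alternative used the other probes of a gene alone. As given above, those showed smaller changes for Rpl14, Rps24 and Rpl9, a larger one for Rpl12, and opposite signs for Rpl36a. Over all named members and alternatives, 1356 family-centred values kept their call, 154 lost it and 4 changed sign, and on the 75th percentile scale 875, 86 and 10 did. These totals cover only members picked because they were called. They also include fits without an array outside the 2 groups compared, where the change itself stays the same by construction. The totals are therefore no measure of how robust the calls are. The causes were not tested, except where fewer arrays were fitted. No share of all entries called is given for any of these alternatives, including fits with arrays left out. The counts of members below therefore stand without a background. Comparisons are listed as 6, 12, 24 and 48 h against Fv2E-PERK mock, 48 h against 6 h, 48 h against wild-type mock, and Fv2E-PERK mock against wild-type mock.

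After quantile normalization the members called were 22, 34, 38 and 45 at the 4 times, 42 for 48 h against wild-type mock, 8 for the mock genotypes and 2 for palmitate against untreated. The medians were -0.022, 0.0045, 0.12 and -0.011, then 0.011, -0.12 and -0.15 in the order given, -0.021 for oleate and 0.019 for palmitate against untreated. Departing members numbered 21 at 6 h, 34 at 12 h, 3 for palmitate against oleate and 2 for palmitate against untreated. Relative to the family Rpl7l1 reversed at 12 h (-0.0038) and Rps23rg1 at 48 h against wild-type mock (-0.19).

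With spike-in scaling 2, 4, 37 and 6 members were called at the 4 times, then 3, 11 and 1, with 1 for palmitate against oleate and 0 for palmitate against untreated. The medians were -0.050, 0.15, 0.55 and 0.0080, then 0.049, -0.21 and -0.26, with 0.26 for palmitate against oleate and 0.13 for palmitate against untreated. At 24 h Rpl14 (0.13), Rpl36a (0.051), Rpl7a (0.16), Rpl9 (0.13) and Rps21 (0.080) reversed.

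With normexp the medians were -0.64 at 6 h, -0.49 at 48 h and -0.83 for 48 h against wild-type mock, departing members numbered 6 for the mock genotypes and 0 for palmitate against untreated, and Rpl39l reversed at 12 h (-0.071), 24 h (-0.17) and 48 h against wild-type mock (-0.43). With the mean over all probes the medians were -0.29 at 24 h, -0.43 at 48 h, 0.20 for 48 h against 6 h and -0.84 for 48 h against wild-type mock, Rpsa reversed (0.12 against mock, 0.040 against wild-type mock), and 3 members were called for palmitate against untreated. Without the filter on dim probes 20 were called for 48 h against 6 h, 31 for the mock genotypes and 1 for palmitate against oleate. In the authors' table the medians were -0.27 for palmitate against untreated, -0.067 for oleate against untreated with 1 called, and -0.22 for palmitate against oleate with 0 called by limma, where Rpl13 (-0.10) and Rpl23a (-0.060) reversed. With slide as a block 3 members were called and 0 departed for palmitate against untreated. In the PERK experiment slide could not be separated as a block, and within slide 4 the 6 h departures numbered 7. Without palmitate replicates 1 and 2, 0 members were called and 0 departed for palmitate against untreated, and 0 departed for palmitate against oleate.

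Replicate numbers were not shown to pair the samples: same-numbered deviations correlated at -0.06 to 0.06 in the fatty acid and -0.09 to 0.26 in the PERK experiment. With the replicate block 1 member was called for palmitate against oleate and 0 departed for palmitate against untreated, and no other count moved by over 1.5 times.

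Leaving out single arrays, where a lone array was assumed to vary like the other groups, gave these ranges. Members called numbered 78 to 81, 65 to 78, 43 to 62 and 60 to 70 at the 4 times, 15 to 37, 75 to 78 and 12 to 60 for the next 3 comparisons, 1 to 3 for palmitate against untreated, 0 to 0 for oleate and 1 to 3 for palmitate against oleate. Medians were -0.76 to -0.67, -0.68 to -0.48, -0.46 to -0.31 and -0.61 to -0.54, then 0.09 to 0.14, -0.95 to -0.91 and -0.39 to -0.35, then -0.08 to -0.01, -0.16 to -0.10 and 0.05 to 0.11. Departing members numbered 4 to 12, 11 to 18, 16 to 31 and 20 to 39, then 14 to 30, 23 to 39 and 1 to 4, then 0 to 1, 0 to 0 and 1 to 2. Departures at 6 h numbered 6 without either mock array, 6 and 4 without 6 h replicate 1 or 2 and 7 without either 48 h array. At 12 h they numbered 11 without mock replicate 1, at 24 h 16 without mock replicate 2, and at 48 h 23 and 20 without mock replicate 1 or 2 and 20 without either 48 h array. For the mock genotypes 1 departed without wild-type mock replicate 1 or either Fv2E-PERK mock array. For palmitate against untreated 3 were called without palmitate replicate 3, and for palmitate against oleate 2 departed without palmitate replicate 2. Signals near background limit Rpl39l, Rps4l, Rpl3l and Rpl10l, and the 2 arrays per group limit the PERK comparisons.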
